A study of Mus musculus with 4 samples.

Results

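The genes described here are 10 genes of the plasma cell program and of antibody transport: Jchain, Pigr, Sdc1, Tnfrsf17, Prdm1, Irf4, Pou2af1, Ighm, Ighg3 and Cd79a. They were selected on their measured values on these same arrays, so their differences are a description and carry no test. Matched by gene name (Jchain is written Igj on this array design), they have 11 probes among 41174 gene probes, or 10 of 27340 genes. Alveolar type II cells, epithelial cells that secrete surfactant into the lung's air sacs, were sorted by flow cytometry from lungs of mice that the labels call female. The 4 groups were Tlr3-/- (Tlr3-deficient) mice with Lewis lung carcinoma (LLC), a mouse lung cancer line, inoculated under the skin 2 weeks earlier, Tlr3-deficient mice without a tumor, wild-type (WT) mice with the same tumor, and WT mice without a tumor. Each group is 1 array, the labels give no age, strain or number of pooled animals, and no p-value can be given.

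Plasma cells are the antibody-secreting stage of B cells. The regulators Irf4 and Prdm1 drive that stage, Pou2af1 is a coactivator that B cells need at octamer sites in antibody promoters, and Cd79a carries the signal of the B cell antigen receptor. Secreted antibodies of the mucosa are joined by the J chain and carried through epithelial cells by the polymeric immunoglobulin receptor, the product of Pigr, into the airway fluid. In the lung, Pigr is best known from the airway epithelium, and Sdc1, a surface proteoglycan used to mark plasma cells, is also made by many epithelial cells.

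Levels below are log2 processed signal minus the 75th percentile of that array, so a level of 0 is the 75th percentile of gene spots and a difference of 1 is a 2-fold difference. Genes that differed at least 2-fold are called higher or lower. If only 1 of the 2 arrays was well above background, the difference is a lower bound, written "at least", and levels of different probes are not compared with each other. The 75th percentile lay between 555 and 904 intensity units on the 4 arrays, and 61.0 to 65.4% of gene spots were well above background. The arrays came from 3 slides, and slide and group cannot be told apart. The array labelled Tlr3-deficient without tumor went against its labelled sex: all 4 Y-linked genes examined were well above background on it and on none of the other 3 arrays, and Xist had a level of 3.80 with tumor and -4.05 without tumor in Tlr3-deficient mice, against 4.04 with tumor and 4.05 without tumor in WT mice. The tumor comparison in WT cells and the genotype comparison with tumor do not use that array. Tlr3 itself was 2.55-fold lower in Tlr3-deficient than in WT cells with tumor and at least 2.44-fold lower without tumor. All 14 alveolar type II markers were well above background on all 4 arrays and none was called in any of the 4 comparisons. The part played by other cells in the sorted samples was not tested, and in such bulk samples more cells of a type and more RNA per cell cannot be told apart.

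The members did not move as 1 block. Jchain, Pigr, Pou2af1, Ighm and Ighg3 were higher with tumor in both genotypes, Sdc1 and Prdm1 differed by under 2-fold throughout, and Irf4, Tnfrsf17 and Cd79a were dim or below background. With tumor, 5 of the 9 members tested in Tlr3-deficient cells were called higher and 0 lower, where 4.51% of 17996 genes tested were higher and 3.9% lower. In WT cells 5 of 8 were called higher and 0 lower, where 5.65% of 17824 genes were higher and 1.55% lower. With normexp background correction, which models the background around each spot, 2 of these 5, Pigr and Ighm, reached 2-fold in WT cells. Quantile normalization and the authors' deposited value table each left 4, all but Pou2af1. The median difference over all 10 members was 1.91 in Tlr3-deficient cells and 0.88 in WT cells, where that over all genes was -0.15 in Tlr3-deficient cells and -0.08 in WT cells. These medians take values below background as they stand, so they include differences that are otherwise lower bounds or untested. For Tnfrsf17 in Tlr3-deficient cells the difference taken was 2.13, where its lower bound was 0.53. Between genotypes with tumor, 3 of 9 members were higher in Tlr3-deficient cells and 0 lower, with 2.92% of genes higher and 2.64% lower. Without tumor, 0 of 7 were higher and 1 lower, with 5.9% of genes higher and 2.34% lower. A member well above background on only the first array of a pair could not be called lower. With against without tumor that held for Cd79a in both genotypes, and for Tnfrsf17 and Pou2af1 in Tlr3-deficient cells.

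**Figure D1:**
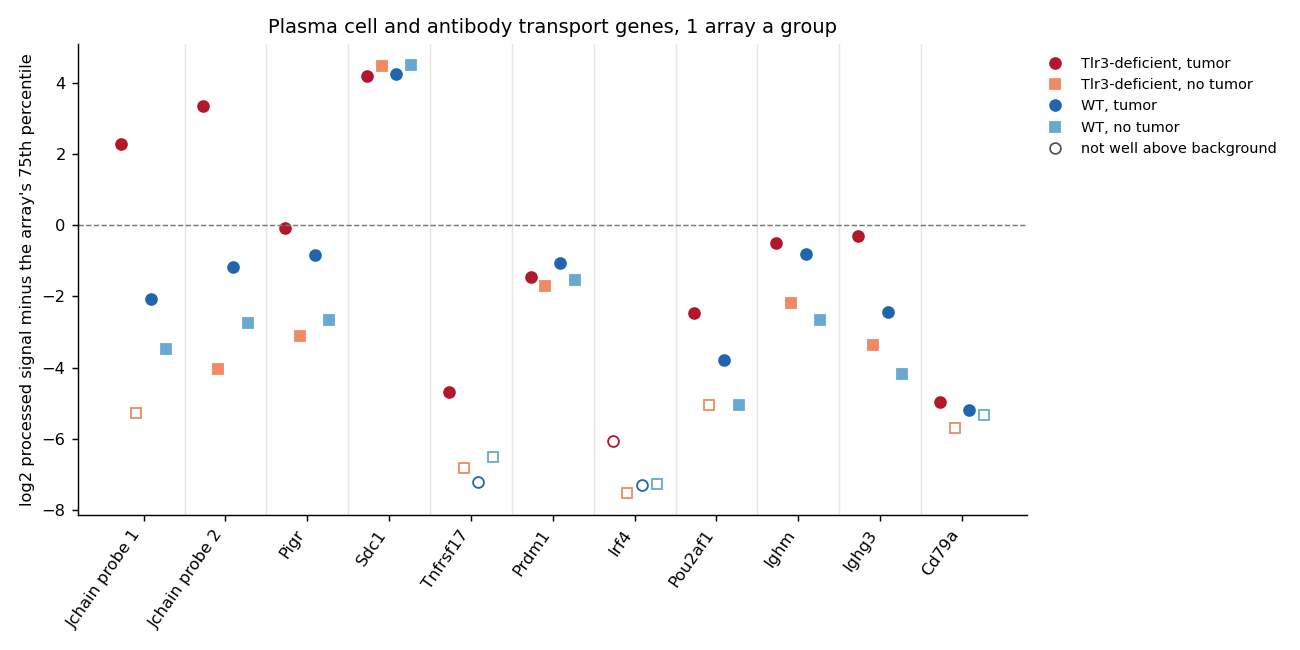
Level of each of the 11 member probes (vertical axis, log2 processed signal minus the array's 75th percentile) on the Tlr3-deficient arrays (red with tumor, orange without) and the WT arrays (dark blue with tumor, light blue without). Open symbols are not well above background; Jchain reached 3.34 at probe 2 on the Tlr3-deficient tumor array, while the 4 Sdc1 points lie between 4.20 and 4.49.

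Jchain, the small protein that joins antibody units into polymeric IgA and IgM, had the largest differences among the members except with against without tumor in WT cells, where Ighm, Pigr and Ighg3 differed more. Its brighter probe, at chr5:88949919-88949978 on the minus strand (mm9), had a level of 3.34 with tumor and -4.03 without tumor in Tlr3-deficient cells, against -1.18 with tumor and -2.75 without tumor in WT cells. The Tlr3-deficient tumor array stood above the other 3, and the Tlr3-deficient array without tumor was the lowest of all. In processed intensity the values were 9140 and 46.5 units in Tlr3-deficient cells with and without tumor, against 351 and 82.5 units in WT cells with and without tumor. The tumor difference was 165-fold in Tlr3-deficient cells and 2.97-fold in WT cells, and the difference between the 2 tumor changes was 5.80 on the log2 scale. Tlr3-deficient cells were 22.9-fold higher than WT cells with tumor, and 2.42-fold lower without tumor. The scanner's error model put 0.20 to 0.25 on each of these 4 log2 differences, which covers the spots and not the animals.

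The other Jchain probe, at chr5:88950089-88950148, gave the same order of arrays. Its level was 2.27 with tumor and -5.27 without tumor in Tlr3-deficient cells, the value without tumor not well above background, against -2.08 with tumor and -3.48 without tumor in WT cells. Across 8 alternative settings plus the main one, the Jchain difference with tumor ran from 6.20 to 7.58 in Tlr3-deficient cells. In WT cells it ran from 0.93 to 1.57, and normexp background correction, with 0.93, was the setting that took it under 2-fold. Between genotypes it ran from 4.29 to 4.69 with tumor and from -1.53 to -0.98 without tumor, again with normexp under 2-fold in the second comparison.

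Pigr, the receptor that carries polymeric IgA and IgM from the tissue side of an epithelial cell to its open surface, was also higher with tumor in both genotypes. Its probe at chr1:132748041-132748100 on the plus strand had levels of -0.07 with tumor and -3.12 without tumor in Tlr3-deficient cells, against -0.84 with tumor and -2.66 without tumor in WT cells. Both tumor arrays lay above both arrays without tumor. The tumor difference was 8.29-fold in Tlr3-deficient cells and 3.55-fold in WT cells. Tlr3-deficient and WT cells differed by under 2-fold, by 0.76 with tumor and by -0.46 without tumor on the log2 scale. Pigr thus differed by tumor status in both genotypes, whereas Jchain also differed between genotypes with tumor.

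RefSeq lists a promoter for 8 of the 10 members, and the windows of Jchain and Pigr are shown because these genes had the largest tumor differences measured on both arrays outside the antibody chains. Each window is the 250 bases before the annotated start (GRCm38.p6, RefSeq), Jchain at chr5:88527898-88528147 on the minus strand and Pigr at chr1:130826434-130826683 on the plus strand. Capitals mark matches to 4 motifs searched on both strands: the octamer ATGCAAAT, the IRF-type GAAANNGAA, the Prdm1-type GTGAAAG and the E-box CACGTG, which was added after the Pigr window had been read.
Jchain: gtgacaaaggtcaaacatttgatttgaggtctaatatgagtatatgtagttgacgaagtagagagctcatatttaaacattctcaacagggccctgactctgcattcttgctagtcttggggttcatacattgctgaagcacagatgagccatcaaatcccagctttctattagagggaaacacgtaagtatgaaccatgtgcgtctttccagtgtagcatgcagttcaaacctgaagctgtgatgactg
Pigr: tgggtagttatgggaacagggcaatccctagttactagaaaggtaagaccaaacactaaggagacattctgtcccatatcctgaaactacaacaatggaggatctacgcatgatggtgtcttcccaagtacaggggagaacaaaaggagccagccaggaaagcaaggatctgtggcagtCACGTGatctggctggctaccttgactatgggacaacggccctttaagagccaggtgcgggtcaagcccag
The Jchain window holds none of the 4 motifs, and the Pigr window holds 1, an E-box that begins 71 bases before the start. An E-box is present in 6.02% of all 32851 such windows, the octamer in 1.6%, the IRF-type motif in 7.13% and the Prdm1-type motif in 3.57%. Of the other 6 members with a window, Tnfrsf17 holds an IRF-type match that begins 100 bases before the start and the rest hold none of the 4. A match is a stretch of letters and not a measured site, and a missing match says only that the letters are not in this window.

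Ighm and Ighg3 encode the constant regions of IgM and IgG3 heavy chains. Ighm had levels of -0.51 with tumor and -2.19 without tumor in Tlr3-deficient cells, against -0.80 with tumor and -2.65 without tumor in WT cells. It was 3.21-fold higher with tumor in Tlr3-deficient cells and 3.62-fold higher in WT cells, and the genotypes differed by under 2-fold with and without tumor. Ighg3 had levels of -0.31 with tumor and -3.36 without tumor in Tlr3-deficient cells, against -2.44 with tumor and -4.17 without tumor in WT cells. It was 8.31-fold higher with tumor in Tlr3-deficient cells and 3.32-fold higher in WT cells, where normexp gave 0.83 on the log2 scale. With tumor, Ighg3 was 4.37-fold higher in Tlr3-deficient than in WT cells, and the Tlr3-deficient array stood above the other 3.

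Pou2af1 had levels of -2.47 with tumor and -5.06 without tumor in Tlr3-deficient cells, the value without tumor not well above background, against -3.80 with tumor and -5.06 without tumor in WT cells. It was at least 5.99-fold higher with tumor in Tlr3-deficient cells and 2.40-fold higher in WT cells, and 2.51-fold higher in Tlr3-deficient than in WT cells with tumor. This gene was sensitive to the processing. With normexp the tumor difference in WT cells was 0.05 on the log2 scale, that in Tlr3-deficient cells was 1.07, and the genotype difference with tumor was 0.72. Quantile normalization and the authors' deposited value table each put the tumor difference in WT cells at 0.96, also under 2-fold.

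Of the regulators and surface genes that define plasma cells, Sdc1 and Prdm1 differed little, and the others were dim. Sdc1 had levels of 4.20 with tumor and 4.46 without tumor in Tlr3-deficient cells, against 4.26 with tumor and 4.49 without tumor in WT cells. Prdm1, the repressor that ends the B cell program, had levels of -1.45 with tumor and -1.71 without tumor in Tlr3-deficient cells, against -1.06 with tumor and -1.55 without tumor in WT cells. Neither reached 2-fold in any of the 4 comparisons, and the arrays of the 2 genotypes were interleaved. Irf4 was not well above background on any array. Tnfrsf17, the receptor through which plasma cells receive the survival signal APRIL, was well above background only on the Tlr3-deficient tumor array, at -4.68, and its lower bounds of 0.53 against no tumor and 0.71 against WT were under 2-fold. With no filter on dim probes its differences were 2.13 against no tumor and 2.51 against WT on the log2 scale, and 0.36 and 0.46 with normexp. Cd79a was well above background only on the 2 tumor arrays, at -4.97 in Tlr3-deficient and -5.20 in WT cells, which differed by 0.23.

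**Figure D2:**
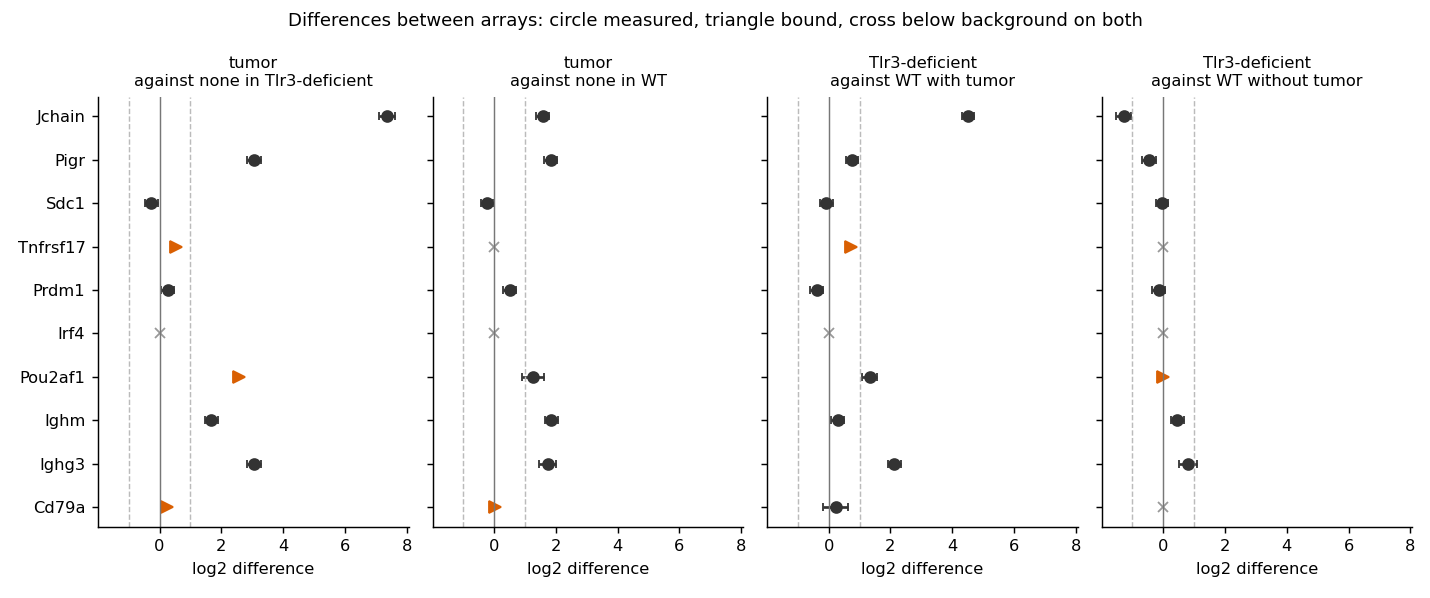
Log2 difference of each of the 10 members in 4 comparisons, from left to right tumor against none in Tlr3-deficient cells, tumor against none in WT cells, Tlr3-deficient against WT with tumor and Tlr3-deficient against WT without tumor. Circles are measured on both arrays with the scanner's error, triangles are lower bounds, crosses at 0 are genes not well above background on either array, and dashed lines mark 2-fold; Jchain lies at 7.36, 1.57, 4.52 and -1.28.

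Probes of antibody constant regions that the gene names do not reveal were collected from their descriptions and positions, after values of the arrays had been seen. Together with the Ighm and Ighg3 probes they number 18. The heavy chain constant genes lie on chromosome 12 in the order Ighm, Ighd, Ighg3, Ighg1, Ighg2b, Ighg2c, Ighe and Igha. The array annotation names 3 probes Igh-VJ558, a variable gene family, yet places them 12778 bases beyond the epsilon probe, where this order has Igha, the gene of the IgA heavy chain. They are called the probes at the position of Igha here. A further probe, described as a gamma chain with no subclass named, lies between the gamma 1 and gamma 2C probes, where the order has Ighg2b. The probe sequences of the heavy chain classes are shown because these near relatives could share labelled RNA. Capitals mark the longest run of bases that each shares with another antibody probe.
mu, chr12:114659100-114659159: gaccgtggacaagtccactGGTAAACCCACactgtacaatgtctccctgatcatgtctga
gamma 1, chr12:114567263-114567322: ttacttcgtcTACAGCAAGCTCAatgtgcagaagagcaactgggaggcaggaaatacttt
gamma without subclass, chr12:114544665-114544724: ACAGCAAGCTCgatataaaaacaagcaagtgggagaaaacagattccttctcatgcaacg
gamma 2C, chr12:114525673-114525732: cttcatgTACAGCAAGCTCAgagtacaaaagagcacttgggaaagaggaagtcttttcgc
position of Igha, chr12:114497243-114497302: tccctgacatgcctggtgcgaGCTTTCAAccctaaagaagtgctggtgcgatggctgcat
position of Igha, chr12:114497123-114497182: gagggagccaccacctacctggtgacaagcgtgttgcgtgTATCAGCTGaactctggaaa
position of Igha, chr12:114496985-114497044: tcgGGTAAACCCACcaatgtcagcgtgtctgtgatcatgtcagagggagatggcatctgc
Ighg3, chr12:114596396-114597927: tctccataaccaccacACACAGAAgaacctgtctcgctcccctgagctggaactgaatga
All are on the minus strand of mm9. The gamma 1 and gamma 2C probes share a run of 13 bases, the longest among the 18 constant region probes, and match at 43 of 60 bases when slid along each other without gaps. The mu probe and the last probe at the position of Igha share a run of 11. The Ighg3 probe spans 1532 bases of the genome and so crosses a splice junction. Which exons it joins is not annotated, so its differences may be those of only some Ighg3 transcripts.

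The probes at the position of Igha put the arrays in the same order as Jchain. The one at chr12:114497243 had levels of 6.19 with tumor and -0.91 without tumor in Tlr3-deficient cells, against 1.79 with tumor and 0.88 without tumor in WT cells. The other probes at that position had 6.35 and 7.77 with tumor and -0.82 and 0.91 without tumor in Tlr3-deficient cells, against 1.90 and 3.65 with tumor and 0.88 and 2.62 without tumor in WT cells. All 3 were well above background on every array. Their tumor differences were 137-, 144- and 117-fold in Tlr3-deficient cells and 1.89-, 2.04- and 2.04-fold in WT cells. They were 21.1-, 21.8- and 17.4-fold higher in Tlr3-deficient than in WT cells with tumor, and 3.45-, 3.25- and 3.28-fold lower without tumor. A probe described as an I alpha transcript, which reads the germline alpha locus before switching, stayed between -4.57 and -3.60 on the 4 arrays and was not called in any comparison.

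The mu probes showed larger tumor differences than the Ighm member probe. The mu probe at chr12:114659100 had levels of 2.83 with tumor and -3.81 without tumor in Tlr3-deficient cells, against 0.65 with tumor and -4.18 without tumor in WT cells. That is 99.3-fold higher with tumor in Tlr3-deficient cells and 28.4-fold higher in WT cells, and 4.52-fold higher in Tlr3-deficient than in WT cells with tumor. The mu probe at chr12:114659630 was at least 26.0-fold higher with tumor in Tlr3-deficient cells and at least 5.37-fold higher in WT cells. The Ighm member probe, at chr12:114656861-114656920, lies 2180 bases past the nearest mu probe in the direction of transcription, and its 3.21- and 3.62-fold differences stood far below these. Which exon it reads is not annotated in the files.

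Among constant region probes measured on both tumor arrays, those of gamma 2C differed most between them. The gamma 2C probe at chr12:114525673 had a level of 4.27 on the Tlr3-deficient tumor array and -3.78 on the WT tumor array, and was not well above background without tumor. It was at least 719-fold higher with tumor in Tlr3-deficient cells and at least 2.77-fold higher in WT cells, and 265-fold higher in Tlr3-deficient than in WT cells with tumor. The other gamma 2C probe, which crosses a junction, was higher by 6.64 on the log2 scale in Tlr3-deficient than in WT cells with tumor. Both gamma 1 probes were well above background only on the Tlr3-deficient tumor array, where they stood at least 22.8- and 36.2-fold above the WT tumor array. The gamma probe without a named subclass had levels of 3.72 in Tlr3-deficient and -0.47 in WT cells with tumor, an 18.3-fold difference, and was below background without tumor. The light chain probes lambda 2 and lambda 3 were 66.3- and 44.7-fold higher with tumor in Tlr3-deficient cells, and 2.44- and 2.22-fold higher in WT cells.

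The epsilon and delta probes differed less. The epsilon probe was not well above background on any array, and the probe for the membrane form of IgE was not called in any of the 4 comparisons. The probe described as membrane-bound IgD had levels of -4.18 in Tlr3-deficient and -4.19 in WT cells with tumor. This delta probe was higher with tumor by at least 2.05-fold in Tlr3-deficient and at least 2.08-fold in WT cells. In all, 15 of the 18 constant region probes were higher with tumor in Tlr3-deficient cells and 11 in WT cells. With tumor, 13 were higher in Tlr3-deficient than in WT cells. In these comparisons 0 were lower, though a probe well above background on only the first array of a pair could not be called lower. Without tumor 0 were higher and 3 were lower in Tlr3-deficient cells, the 3 at the position of Igha. Over all genes, 4.51%, 5.65% and 2.92% were higher in the first 3 of these comparisons, and without tumor 5.9% were higher and 2.34% lower. With normexp 14, 4 and 13 were higher in the first 3 of these comparisons. The count in WT cells thus depended on the processing, and it was also 8 with median centring and 10 with quantile normalization.

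**Figure D3:**
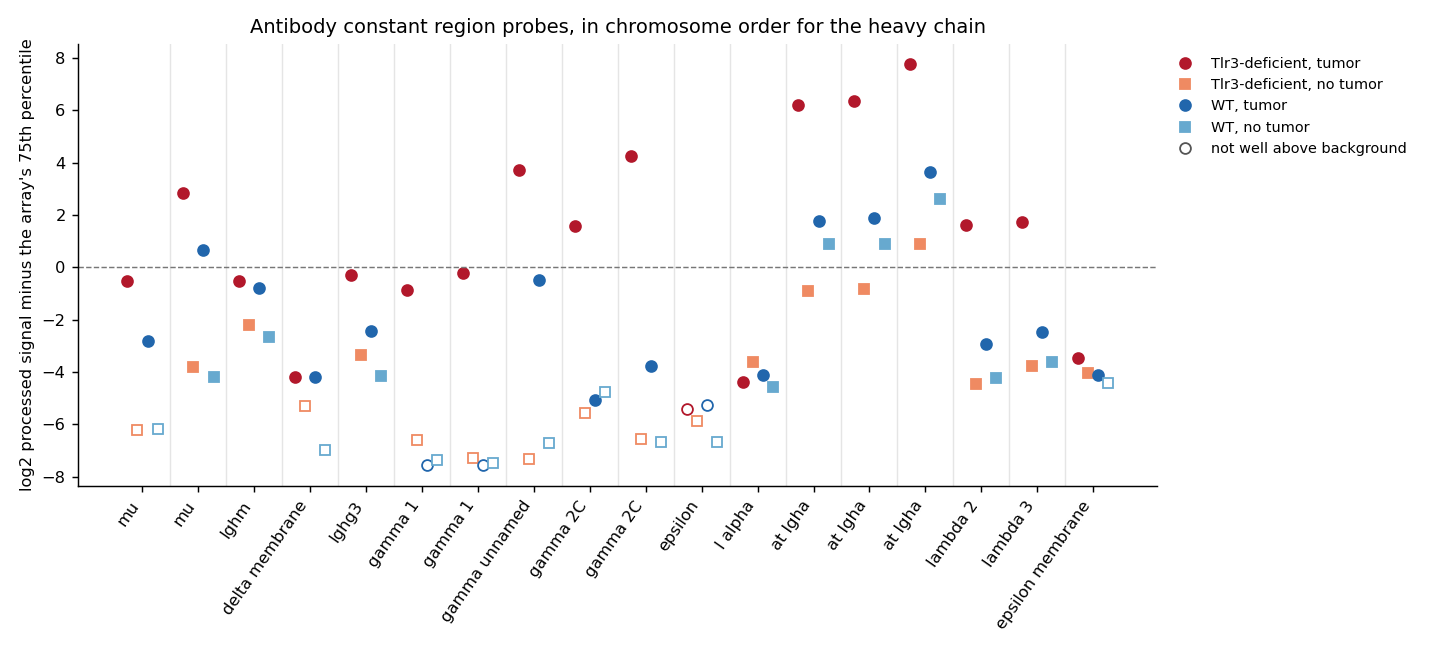
Level of 18 antibody constant region probes (vertical axis, log2 processed signal minus the array's 75th percentile), the heavy chain probes in chromosome order from mu to the position of Igha, then the lambda probes and the membrane form of epsilon, which has no position. Colours and open symbols are as in the plot of member levels; the probes at the position of Igha lie between 6.19 and 7.77 on the Tlr3-deficient tumor array and between 1.79 and 3.65 on the WT tumor array.

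Most variable region probes were higher with tumor in Tlr3-deficient cells and few were in WT cells. By name 37 probes belong to antibody variable genes, and 32 remain without the 5 that lie among the constant genes. Of these 32, 30 were well above background on the Tlr3-deficient tumor array and 2 on the Tlr3-deficient array without tumor, against 15 on the WT tumor array and 9 on the WT array without tumor. Their median level was -0.60 with tumor and -7.11 without tumor in Tlr3-deficient cells, against -5.42 with tumor and -5.99 without tumor in WT cells. With tumor 29 were higher in Tlr3-deficient cells and 3 in WT cells, and 29 were higher in Tlr3-deficient than in WT cells. Over all genes, 4.51%, 5.65% and 2.92% were higher in these comparisons, in the same order. No variable probe was lower in these 3 comparisons, but a probe well above background on only the first array of a pair could not be called lower. That held for 28 of 30 probes tested with tumor in Tlr3-deficient cells and 15 of 30 between genotypes with tumor. Without tumor 0 were higher and 5 were lower in Tlr3-deficient cells, among them 3 of 8 lambda, 1 of 14 kappa and 1 of 10 heavy chain probes. Of the 9 tested there, 7 were well above background only in WT cells and could not be called higher. Over all genes, 5.9% were higher and 2.34% lower without tumor. Quantile normalization and the authors' deposited value table each also put 2 probes lower with tumor in WT cells, and normexp left 0 higher there.

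Probes of 4 variable genes are printed to show how alike they are, with the longest run shared with another antibody probe in capitals. Igkv4-55 was picked for its shared run after its values were seen.
Igkv3-4, chr6:70622214-70622273: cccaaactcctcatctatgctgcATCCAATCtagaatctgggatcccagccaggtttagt
Ighv1-77, chr12:117100209-117100268: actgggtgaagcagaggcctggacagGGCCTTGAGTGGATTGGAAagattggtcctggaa
Igkv4-59, chr6:69388234-69388293: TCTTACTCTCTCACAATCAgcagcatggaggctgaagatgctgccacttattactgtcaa
Igkv4-55, chr6:69557315-69557374: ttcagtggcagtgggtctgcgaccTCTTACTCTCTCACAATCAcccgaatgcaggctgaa
Igkv3-4 is on the plus strand and the other 3 on the minus strand of mm9. Igkv4-59 and Igkv4-55 share a run of 19 bases, and 15 of the 32 variable probes share a run of at least 15 with another of the set, so a signal cannot be given to 1 gene of a family with certainty. Igkv3-4 was well above background only on the Tlr3-deficient tumor array, at 1.20, which is at least 85.5-fold above the Tlr3-deficient array without tumor and at least 96.4-fold above the WT tumor array. Igkv4-59 had levels of 0.67 with tumor and -6.41 without tumor in Tlr3-deficient cells, the value without tumor not well above background, against -5.01 with tumor and -4.12 without tumor in WT cells. Its difference with tumor was thus at least 59.2-fold upward in Tlr3-deficient cells and -0.89 on the log2 scale in WT cells. By measured fold or lower bound, the highest values with against without tumor in Tlr3-deficient cells were those of an Igh-VJ558 probe (at least 143-fold), a first Iglv1 probe (138-fold, measured on both arrays), a second Iglv1 probe (at least 94.9-fold), Igkv3-4 and the probe named Igk-V21 (at least 67.8-fold). Between genotypes with tumor they were those of Igkv3-4, Igk-V21 (at least 76.5-fold), Igkv4-59 (51.3-fold), the same Igh-VJ558 probe (36.3-fold) and Igkv4-55. Lower bounds have no order among themselves. With tumor in Tlr3-deficient cells, Ighv1-77 stood at least 55.1-fold and Igkv4-55 at least 58.4-fold higher, and they were 31.1- and 33.9-fold higher in Tlr3-deficient than in WT cells with tumor.

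**Figure D4:**
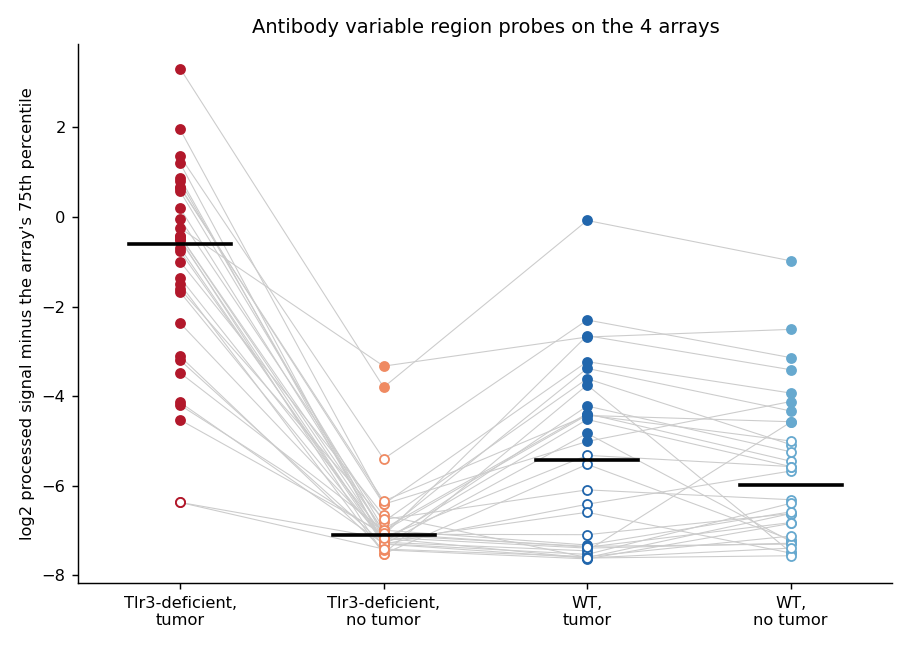
Level of 32 antibody variable region probes (vertical axis, log2 processed signal minus the array's 75th percentile) on the 4 arrays, with grey lines joining the points of a probe, black bars at the medians and open symbols for values not well above background. The median is -0.60 on the Tlr3-deficient tumor array and between -7.11 and -5.42 on the other 3.

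The genes whose 4-array profile was most like that of Jchain were themselves antibody sequences. Likeness was the root mean square difference of profiles centred on their own mean, over 4 arrays and 18696 genes well above background on at least 1. The nearest was AF152371, described as a kappa light chain, with a difference of 0.13, followed by Ighv1-77 with 0.20 and by FM179740, JX120217 and AB070552 with 0.25 to 0.30, all described as antibody heavy chain transcripts. AF152371 was well above background on all 4 arrays and the other 4 were not on the Tlr3-deficient array without tumor. Those nearest to Pigr were Evi2a (0.11), Gpr171 (0.14), Arhgap30 and Gpr183 (0.16 each) and the unnamed transcript AK037667 (0.18), all well above background on both tumor arrays and on neither array without tumor. Their values without tumor are thus background, so these distances are approximate and give no order. Evi2a, Gpr171, Arhgap30 and Gpr183 are genes known from blood cells.

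The counts of genes called in the machinery that plasma cells need for secretion were small. Over all genes tested, 4.51% were higher with tumor in Tlr3-deficient cells and 5.65% in WT cells, and these counts are too small to set the list apart. Of 24 genes for secretion and plasma cell identity, 22 were tested with against without tumor in Tlr3-deficient cells and 2 were higher, Mzb1 and Zbp1. Mzb1, which helps assemble antibodies in the endoplasmic reticulum of B cells, had levels of -1.16 with tumor and -2.99 without tumor in Tlr3-deficient cells, against -2.19 with tumor and -2.52 without tumor in WT cells. It was 3.57-fold higher with tumor in Tlr3-deficient cells and 2.05-fold higher in Tlr3-deficient than in WT cells with tumor. In WT cells 2 of 21 were higher with tumor, Tent5c, which stabilises antibody messenger RNA, by 2.32-fold, and Zbp1, a nucleic acid sensor, by 2.13-fold. Xbp1, the regulator of the secretory apparatus, had levels of 2.51 with tumor and 2.09 without tumor in Tlr3-deficient cells, against 2.13 with tumor and 1.44 without tumor in WT cells, with no 2-fold difference. Slamf7, a surface receptor of plasma cells, was at least 2.20-fold higher in Tlr3-deficient than in WT cells with tumor. The median difference of the 24 genes with tumor was -0.03 in Tlr3-deficient cells and 0.06 in WT cells.

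Some B cell genes were higher with tumor in both genotypes. Of 18 B cell surface and receptor genes, 6 of 16 tested were higher in Tlr3-deficient cells and 4 of 12 in WT cells, with 0 lower. Genes well above background on only the tumor array, such as Ms4a1, Cr2, Cd37, Cd72 and Fcmr in both genotypes, could not be called lower. Over all genes, 4.51% were higher in Tlr3-deficient and 5.65% in WT cells. The median differences of the 18 were 1.38 in Tlr3-deficient and 1.07 in WT cells, with values below background taken as they stand. Without tumor only 8 of the 18 were well above background in Tlr3-deficient cells and 6 in WT cells. The medians are thus no measure of how far the list differed. Fcer2a, the low-affinity IgE receptor, had levels of -0.32 with tumor and -3.49 without tumor in Tlr3-deficient cells, against -1.92 with tumor and -2.78 without tumor in WT cells. It was 8.96-fold higher with tumor in Tlr3-deficient cells and 3.03-fold higher in Tlr3-deficient than in WT cells with tumor, the only gene of the list called in that comparison. Ms4a1, the B cell surface protein CD20, was at least 3.67-fold higher with tumor in Tlr3-deficient cells and at least 2.76-fold higher in WT cells, and Fcmr, the IgM Fc receptor, was at least 4.48-fold higher in Tlr3-deficient and at least 3.31-fold higher in WT cells. The adaptor Blnk was 4.58-fold higher with tumor in Tlr3-deficient cells and differed by 0.64 on the log2 scale in WT cells. Without tumor Blnk and Vpreb3 were 2.02- and 2.63-fold lower in Tlr3-deficient than in WT cells, and with tumor these genotype differences were 0.54 and -0.09 on the log2 scale.

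Among 14 B cell and plasma cell transcription factors, Spib moved most. Its level was -1.72 with tumor and -5.01 without tumor in Tlr3-deficient cells, against -3.96 with tumor and -5.83 without tumor in WT cells, and neither array without tumor was well above background. Spib was at least 9.78-fold higher with tumor in Tlr3-deficient cells, at least 2.44-fold higher in WT cells, and 4.73-fold higher in Tlr3-deficient than in WT cells with tumor. In Tlr3-deficient cells Ikzf1 was also at least 2.26-fold higher with tumor and Id3 was 2.47-fold lower. In WT cells Id3 differed by -0.94 on the log2 scale, under 2-fold. The lower bound for Ikzf1 in WT cells was 0.87 on the log2 scale, so whether its difference reached 2-fold is not known. Of 16 measured genes of plasma cell survival and homing, the integrin chain Itgb7 was 4.43-fold higher with tumor in Tlr3-deficient cells and 2.74-fold higher in WT cells. Cxcl13, the chemokine that draws B cells, was at least 2.35-fold higher in Tlr3-deficient and at least 4.36-fold higher in WT cells. Tnfrsf13b, a receptor for the survival factors BAFF and APRIL, was at least 2.53-fold higher with tumor in Tlr3-deficient cells and at least 2.85-fold higher in Tlr3-deficient than in WT cells with tumor.

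Genes of transport and induction around Pigr in the epithelium were called in small numbers. Over all genes tested, 4.51% were higher with tumor in Tlr3-deficient cells and 5.65% in WT cells. Of 14 genes of transcytosis and Fc transport, 1 was higher with tumor in Tlr3-deficient cells, B2m, the light chain of the neonatal Fc receptor and of MHC class I, by 2.14-fold, and 0 in WT cells. Fcgrt, the heavy chain of the neonatal Fc receptor, had levels of 1.11 with tumor and 0.83 without tumor in Tlr3-deficient cells, against 1.12 with tumor and 1.15 without tumor in WT cells. Of 15 genes whose signals are known to induce Pigr, 1 was higher with tumor in Tlr3-deficient cells, Tnf by at least 2.08-fold, and 0 in WT cells. Of 6 Fc receptor genes tested, 3 were higher with tumor in Tlr3-deficient and 5 in WT cells. Fcgr3, which binds antibody on myeloid cells, was 6.14-fold higher with tumor in Tlr3-deficient cells and 6.43-fold higher in WT cells, while Fcgr4 differed by 0.61 in Tlr3-deficient and 2.02 in WT cells on the log2 scale.

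Markers of other cells moved beside these genes. With tumor, 10 of 10 neutrophil markers tested were higher in Tlr3-deficient and 9 of 10 in WT cells, where 4.51% and 5.65% of all genes were higher. The summed level of the 11 neutrophil markers was 6.10 with tumor and 1.82 without tumor in Tlr3-deficient cells. In WT cells it was 6.74 with tumor and 1.98 without tumor. That sum rests mainly on S100a9. For alveolar macrophage markers 4 of 9 tested were higher with tumor in Tlr3-deficient and 3 of 9 in WT cells. Their summed level was 3.71 with tumor and 2.25 without tumor in Tlr3-deficient cells, against 2.58 with tumor and 2.63 without tumor in WT cells. On the Tlr3-deficient tumor array that sum rests mainly on Chil3, at 3.24. Chil3 stood at 1.04 without tumor in Tlr3-deficient cells, and at 1.49 with tumor and 1.74 without tumor in WT cells. For T and NK cell markers 3 of 7 tested were higher with tumor in Tlr3-deficient and 0 of 7 in WT cells. Their summed level was -0.82 with tumor and -1.63 without tumor in Tlr3-deficient cells, against -0.84 with tumor and -1.19 without tumor in WT cells. For dendritic cell and monocyte markers 2 of 7 tested were higher with tumor in Tlr3-deficient and 1 of 7 in WT cells. For the 18 B cell genes the summed level was 4.45 with tumor and 3.29 without tumor in Tlr3-deficient cells, against 4.37 with tumor and 4.13 without tumor in WT cells. That sum rests mainly on Vpreb3 and Cd79b, and the median level of the 18 was -4.34 with tumor and -5.13 without tumor in Tlr3-deficient cells, against -4.37 with tumor and -5.54 without tumor in WT cells. In Tlr3-deficient cells the summed level of the 12 airway secretory markers was 9.42 with tumor and 9.28 without tumor. In WT cells it was 9.61 with tumor and 9.96 without tumor. That sum rests mainly on Scgb1a1. With tumor, 3 of the 12 were higher and 0 lower in Tlr3-deficient cells, and 2 were higher and 1 lower in WT cells. Over all genes, 3.9% were lower with tumor in Tlr3-deficient and 1.55% in WT cells. In Tlr3-deficient against WT cells, 5 were lower without tumor and 3 with tumor, with 0 higher in each. Between genotypes, 2.34% of all genes were lower and 5.9% higher without tumor, and 2.64% lower and 2.92% higher with tumor. The 14 alveolar type II markers summed to between 11.08 and 11.26 on all 4 arrays. The part of these cells in the values of Jchain, Pigr and the antibody genes was not tested.

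When the WT array without tumor took the place of the array whose sex-linked transcripts go against its label, the same 5 members, Jchain, Pigr, Pou2af1, Ighm and Ighg3, were called higher on the Tlr3-deficient tumor array. The arrays set against each other there differ in genotype as well as in tumor. A tumor difference and a genotype difference therefore cannot be told apart in that replacement. For measured values it only adds the WT tumor difference to the genotype difference with tumor, so it is no separate check. The share of all genes called in it is not given here. The genotype comparison with tumor does not use the array that goes against its label, and Jchain, Pou2af1 and Ighg3 were higher in that comparison.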

How the data were processed

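RNA of sorted mouse alveolar type II cells was hybridised to 4 one-colour (Cy3) Agilent arrays of mouse design 014868, 1 for each group. The scanner files the authors deposited hold spot intensity from Agilent Feature Extraction 10.7.3.1, background-subtracted within each array and not scaled between arrays, per the file headers. The authors also deposited a table of log2 values, and no source used here says how it was made. Its columns correlated with log2 scanner intensity at r = 0.9995 to 0.9998, were not centred by gene, ran in the same direction and had medians of 6.315 to 6.317.

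The deposited intensity was taken to log2 and set against the 75th percentile of gene spots on each array. Outlier spots were dropped, repeated spots were averaged by probe, and the brightest probe over the 4 arrays stood for its gene. Of 41174 probes, 27668 were named by RefSeq accession, 5589 by current symbol and 459 by an older symbol through a GRCm38.p6 table, and 7458 kept the file's name. Probe coordinates are the files' own (mm9). Genes were taken as well above background where more than 50% of the spots of any of their probes carried that flag. A call is a difference of at least 2-fold. A bound compares the bright value with whichever is larger, the value of the dim probe or the lowest level that counted as well above background on its array, -5.41 to -5.22. Between repeated spots the SD of the log2 difference was 0.111 for the Tlr3-deficient pair, 0.287 for the WT pair, 0.113 between the tumor arrays and 0.293 between the arrays without tumor. The number of arrays limits the precision.

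The members, gene lists and rules were chosen with earlier results of these data known. Named genes were all members, up to 4 called genes of a list and comparison, the 5 variable probes with the highest measured differences or bounds and the 5 genes nearest to Jchain or Pigr; some genes of these lists are not reported here. Calling was tested on simulated data. Alternatives were normexp with an offset of 50 (limma 3.58.1 in R 4.3.3), quantile normalization, median centring, the deposited log2 table, the mean of all probes, 2 other filters and outlier spots kept. Python 3.11.15, numpy 2.4.6, pandas 2.3.3 and matplotlib 3.10.9 were used.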

Additional observations from a re-analysis of the deposited data

Results flagged for a closer look

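Of 121 genes of the lists that were well above background on all 4 arrays, 12 had a tumor difference that ran upward in 1 genotype and downward in the other by more than the spread between repeated spots. Among them are 4 genes that the naming rule picks, given here with 1 antibody probe that did the same. None of these differences was tested, because each group is 1 array. Tent5c, which stabilises antibody messenger RNA, differed by -0.84 on the log2 scale with tumor in Tlr3-deficient cells and by 1.21 in WT cells, a difference of -2.06 between the 2 changes. The probe for the I alpha transcript differed by -0.77 in Tlr3-deficient and 0.46 in WT cells, -1.23 between the changes. Yes1, a kinase of Pigr transcytosis, differed by -0.20 in Tlr3-deficient and 0.78 in WT cells, -0.98 between the changes. The airway secreted proteins ran the other way: Bpifa1 differed by 1.70 in Tlr3-deficient and -1.25 in WT cells, 2.95 between the changes, and Bpifb1 by 1.06 in Tlr3-deficient and -0.58 in WT cells, 1.64 between the changes. The change in Tlr3-deficient cells uses the array whose sex-linked transcripts go against its label.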

How the results depend on the processing

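Counts of members called were recomputed 66 times, under 8 alternatives for 4 comparisons in both directions and, added after the data were seen, with the WT array without tumor in place of the Tlr3-deficient one. That replacement compares arrays that differ in genotype as well as in tumor. In 63 of the 66 the count stayed within 1.5 times, but many of these set a count of 0 against 0. No member was lower with tumor in either genotype or between genotypes with tumor, and none was higher between genotypes without tumor. The 63 are thus no measure of how firm the calls are. With normexp, 2 members were higher with tumor in WT cells, Pigr and Ighm, in place of 5, and 0 were lower in Tlr3-deficient than in WT cells without tumor, in place of 1. Quantile normalization and the deposited table each gave 4 members higher with tumor in WT cells, without Pou2af1. With no filter on dim probes, 5 were higher in Tlr3-deficient than in WT cells with tumor, in place of 3. The offset that normexp adds shrinks differences of dim genes by construction. Of 307 recomputed differences of single members, 265 moved by less than the spread between repeated spots, 42 moved by more, and 0 of the called ones changed sign. Many of the 265 could not move: the 2 other filters leave a difference as it is, and the mean of all probes can change only Jchain. Normexp moved 27 and left 13, the deposited table moved 8 and quantile normalization moved 7. Adding the 5 probes named for variable genes that lie among the constant genes, also after the data were seen, gave 6 variable probes higher with tumor in WT cells in place of 3, and 8 lower in Tlr3-deficient than in WT cells without tumor in place of 5. No array could be left out, and no paired analysis was possible because each group holds 1 array. Signal over background limits Irf4, Tnfrsf17 and Cd79a on most arrays.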
